A study of Mus musculus with 15 samples.

Results

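Subunits of voltage-gated calcium and sodium channels, of potassium channels and of HCN channels were followed in 2 mouse cell lines before and after dexamethasone. The genes were taken by symbol: every Cacna, Cacnb, Cacng, Kcn, Hcn and numbered Scn gene in the annotation of the exon array that had at least 3 probesets mapping to it alone. Of 104 such symbols, 103 qualified, out of 15025 genes with a value in all. They comprised 73 potassium channel genes, 19 calcium channel genes, 10 sodium channel genes and the HCN gene Hcn2. Scn9a had 1 probeset and was left out, with a level at 0 h of 3.02 in 3134 and 2.95 in AtT-20. At the lower limit of 3 probesets stood Kcna3, Kcna5, Kcnj1, Kcnj5, Kcnk13, Kcnk18 and Kcns2, whose levels at 0 h ran from 4.18 to 6.61.

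The 3134 line is labelled as a mammary adenocarcinoma line obtained by transforming C127 cells, from an RIII mouse. AtT-20 is labelled as a corticotroph line of the anterior pituitary, from strain LAF1. Each is a single line, and both were held for 48 h in serum stripped with charcoal and dextran before the hormone was added. Cells then received 100 nM dexamethasone, a synthetic agonist of the glucocorticoid receptor, for 2, 4 or 8 h. The 0 h arrays are described as untreated in one label and as vehicle treated in another. The 15 arrays comprised 2 for every combination of line and time, apart from a single one of AtT-20 at 8 h. No array held cells cultured for the same hours without the hormone, so hormone and time in culture cannot be told apart. The labels do not tell whether the arrays of a group stem from separate cultures. The spread behind each p-value is therefore that of these arrays, and it may be technical.

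Voltage-gated calcium channels are built on a pore-forming alpha1 subunit with beta and alpha2delta partners, and calcium that enters through them triggers hormone release. In corticotrophs, which fire action potentials, this entry drives the secretion of ACTH, while potassium channels set the resting potential and the length of each spike. BK channels, whose pore is Kcnma1, are known in this cell type as a target through which glucocorticoids dampen firing. Potassium channels fall into voltage-gated, calcium-activated, inward rectifier and 2-pore-domain families. Their auxiliary subunits change gating and traffic rather than carry current.

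A level here is the log2 signal of a gene after quantile normalization of the 15 arrays, taken as the median over its probesets. Probes bind with different strength, so levels were compared between arrays and not between genes. A gene was tested where its mean in at least 1 of the 8 groups reached log2 6.59, the 40th percentile of all probeset values, and it is called at level in a group whose mean reached that value. The labelled identities were checked first. In AtT-20, 6 of 8 measured corticotroph markers were at level at 0 h and in 3134 none was: the hormone precursor Pomc stood at 13.23 ± 0.349 (SD, n = 2) against 5.20 ± 0.0143 (SD, n = 2). The corticotroph factor Tbx19 stood at 12.02 against 4.81. None of 10 markers of the other pituitary cell types was at level in either line, and 7 of 8 neuronal markers were at level in AtT-20 and none in 3134. In 3134, 2 of 7 mammary epithelial markers were at level, Krt8 at 6.77 and Krt14 at 7.03, while Epcam and Cdh1 lay at 4.32 and 5.73. In AtT-20 2 of the 7 were at level as well, with Krt8 at 11.68 and Krt18 at 9.97 against 4.95 for Krt18 in 3134, so that 2 of the list were higher in AtT-20 and 1 in 3134, and the list does not bear out the mammary label. Of 8 mesenchymal markers, 7 were at level in 3134 and 2 in AtT-20. In such bulk extracts, fewer cells that express a gene and less RNA per cell cannot be told apart.

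Of the 103 channel genes, 28 were at level in AtT-20 at 0 h and 10 in 3134. These shares, 27.2% and 9.71%, compare with 58.7% and 56.6% of all genes. The lines had 6 genes at level in common: the calcium channel beta subunits Cacnb1 and Cacnb3, the sodium channel pore Scn3a, the beta subunit Kcnab2 and the 2-pore-domain channels Kcnk3 and Kcnk12. A further 22 were at level in AtT-20 and not in 3134, and 4 (Cacnb2, Kcna3, Kcnf1 and Kcnn4) in 3134 and not in AtT-20. The other 71 were at level in neither line at 0 h. During dexamethasone the number at level stayed between 28 and 30 in AtT-20 and was 8 at each time in 3134. These counts turn on small shifts, as some genes lay close to 6.59. At 0 h the means of Kcnk12, Kcna3 and Cacnb2 in 3134 were 6.60, 6.61 and 6.67, and that of Kcnf1 in AtT-20 was 6.58. Tests were possible for 35 channel genes, and the remaining 68 did not reach 6.59 in any group mean, the highest of them being 6.53. A low signal limits what can be seen, and it does not show that a gene is silent.

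**Figure D1:**
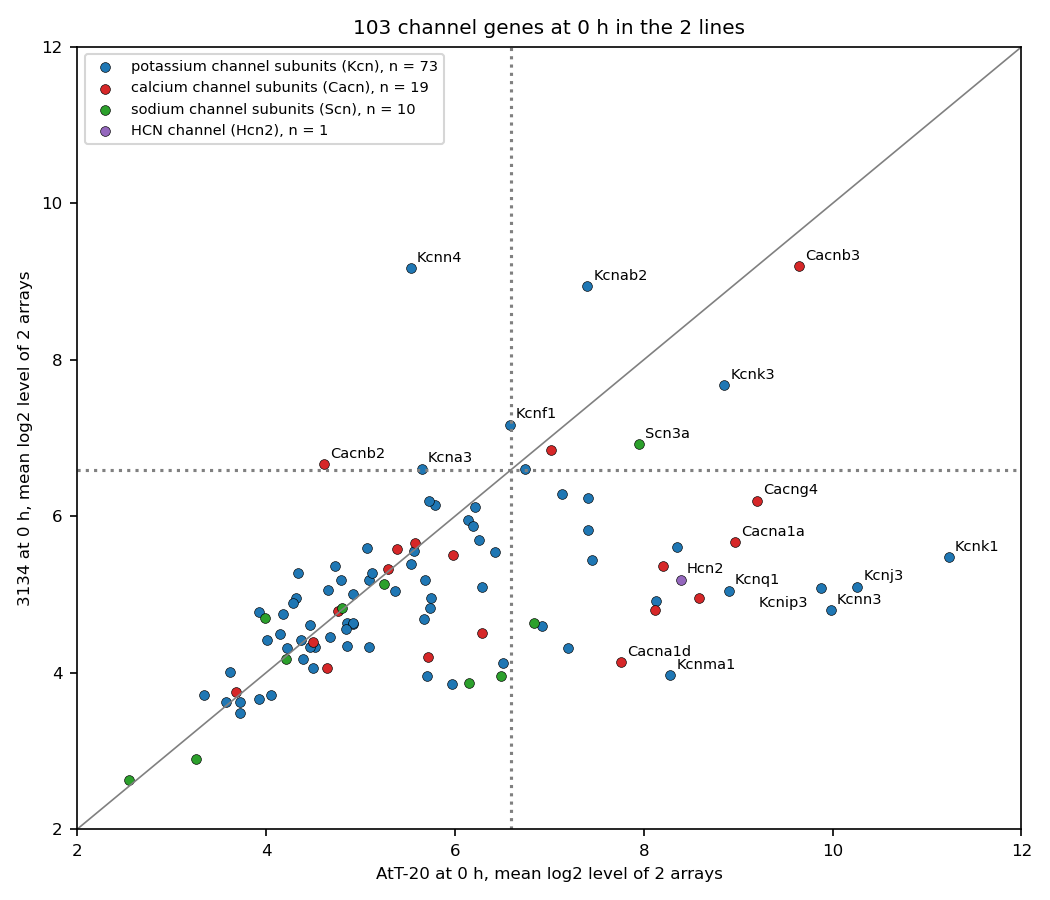
Mean log2 level at 0 h of each of the 103 channel genes in AtT-20 (horizontal axis) and in 3134 (vertical axis), 2 arrays each, coloured by channel type, with the diagonal of equal level and dotted lines at log2 6.59. Most points lie in the lower left, 22 lie right of the vertical line and below the horizontal one, and 4 lie above the horizontal line and left of the vertical one.

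The untreated lines differed in most of the channel genes that could be tested. Of 35, 28 were higher in AtT-20 and 4 were higher in 3134, by limma with Benjamini-Hochberg adjusted p under 0.05 over all 9919 tested genes. Of all tested genes 54.5% differed, 30.3% being higher in AtT-20 and 24.3% higher in 3134. A gene had to be at level in some group to be tested, so these counts speak for the tested genes and not for all 103. At 0 h, 22 of the tested genes were at level in AtT-20 only and 4 in 3134 only. Entry through the line where a gene is high favours that direction, so the split of 28 and 4 is partly set by the filter. Over all 103, the median difference, 3134 minus AtT-20, was -0.27 on the log2 scale, against -0.04 over all genes. Complete separation of the 8 arrays of 3134 from the 7 of AtT-20 gave a count that needs no filter. For 33 of 103 genes every 3134 array lay below every AtT-20 array, which is 32.0% against 21.0% of all genes, and for 5 (4.85% against 16.3%) every one lay above. Without the filter, 35 channel genes were higher in AtT-20 and 6 were higher in 3134 of 103 tested, beside 20.4% and 16.4% of all 15025 genes.

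**Figure D2:**
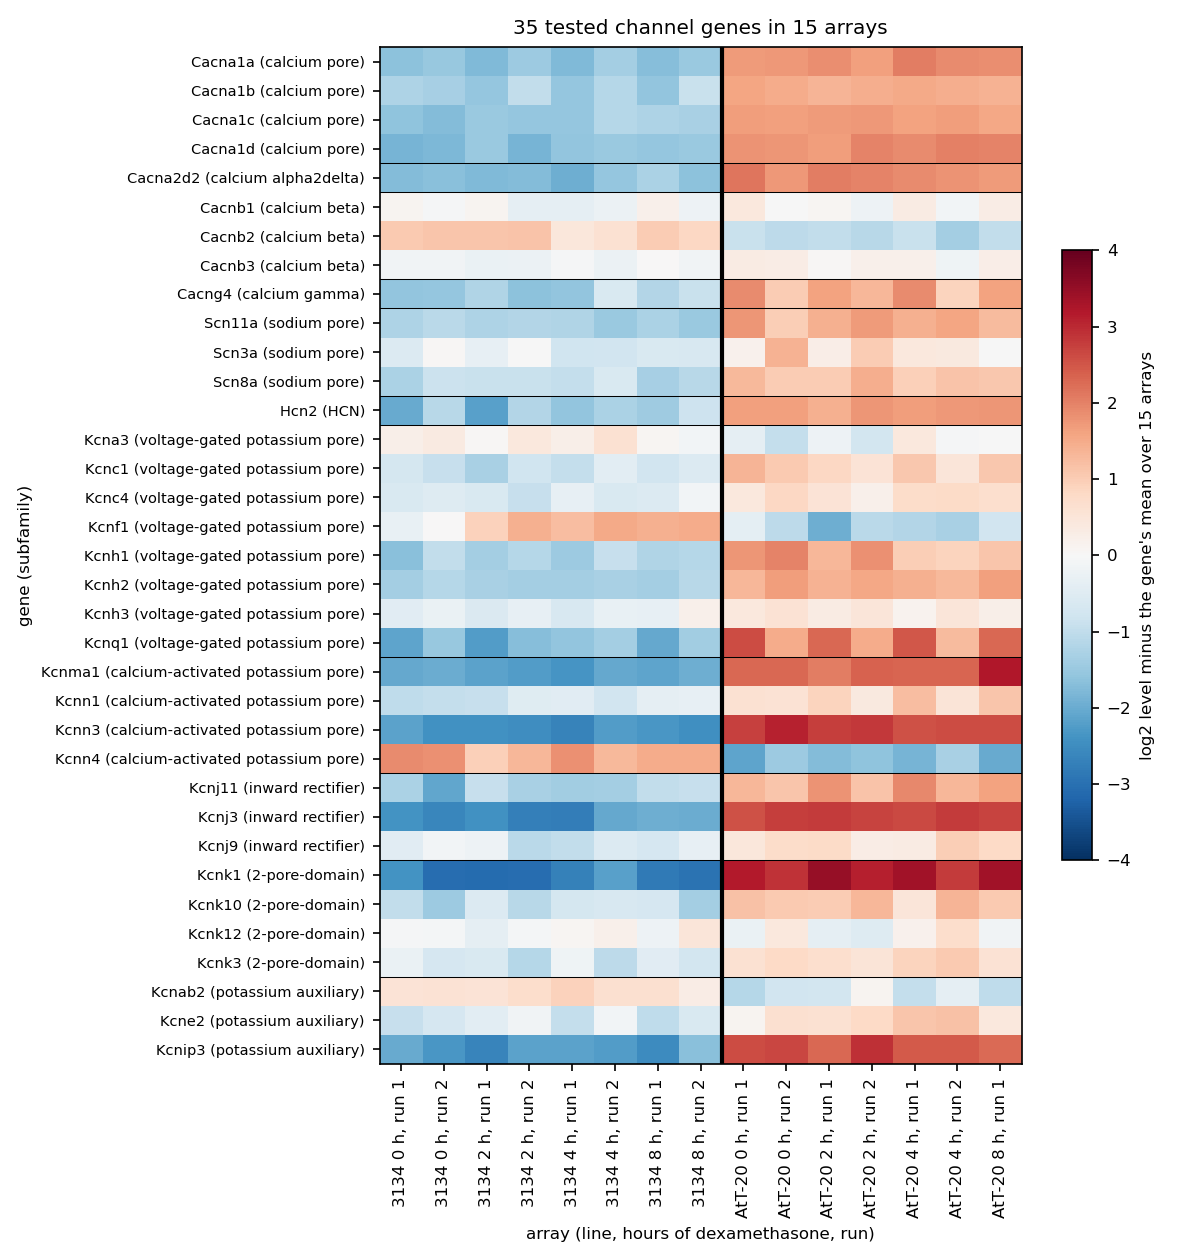
Log2 level of the 35 tested channel genes (rows, grouped by subfamily) in the 15 arrays (columns; 3134 left of the black line, AtT-20 right of it), each gene shown relative to its own mean over the arrays. For 25 of the 28 genes higher in AtT-20 every array on the left lies below every array on the right, Cacnb3, Kcnh3 and Scn3a overlap, Cacnb2, Kcnab2 and Kcnn4 are higher on the left, and Kcnf1 darkens with time on the left.

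Among the calcium channel pores, Cacna1a, Cacna1b, Cacna1c and Cacna1d were each higher in AtT-20, and the other 5 stayed below the testing level. Cacna1c and Cacna1d form the L-type channels that carry much of the calcium current of endocrine cells. Cacna1c read 8.13 and 8.11 in the AtT-20 arrays at 0 h and 4.86 and 4.75 in those of 3134, a difference of -3.32 ± 0.162 (SE; adjusted p = 6.28e-09 by limma). Cacna1d read 7.77 and 7.74 against 4.10 and 4.16, a difference of -3.63 ± 0.170 (SE; limma adjusted p = 4.32e-09). The P/Q-type pore Cacna1a and the N-type pore Cacna1b, both known for triggering neurotransmitter release, differed by -3.30 and -2.83. Of these 4 genes no 3134 array reached 6 at any time and no AtT-20 array fell under 7. Most probesets shared the direction: 39 of 45 probesets of Cacna1a, 55 of 60 of Cacna1d and 62 of 66 of Cacna1c were lower in both 3134 arrays than in both AtT-20 arrays at 0 h. Cacna1e, the R-type pore, was not tested in the main analysis, as its AtT-20 arrays read 6.43 and 6.16. Its 3134 arrays read 4.34 and 4.68, and the fit without the filter gave -1.78 with a limma adjusted p of 5.07e-05.

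The partners of the calcium pore divided between the lines. Cacna2d2, an alpha2delta subunit that aids traffic of the pore to the membrane, was higher in AtT-20 by 12.4-fold, at 8.79 and 8.38 against 4.92 and 4.98. Cacng4, placed in the gamma family by its symbol alone, read 9.63 and 8.77 in AtT-20 and 6.19 and 6.21 in 3134. Whether it partners the calcium pore in these cells was not tested. The cytoplasmic beta subunits, which bind the pore and tune its opening, gave 3 patterns. Cacnb2 was higher in 3134, with 6.63 and 6.71 against 4.69 and 4.53, a difference of 2.06 ± 0.178 (SE; limma adjusted p = 8.98e-07), and 17 of its 19 probesets were higher in both 3134 arrays. Cacnb3 was at level in both lines, at 9.20 and 9.20 in 3134 and 9.66 and 9.63 in AtT-20. Its difference of -0.44 had a limma adjusted p of 0.0381, which rose to 0.224 with median-centred arrays and to 0.983 on the deposited scale. Cacnb1 differed by -0.16, with a 95% interval from -0.68 to 0.36.

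Sodium channels carry the upstroke of the action potential. Scn8a, Scn11a and Scn3a were higher in AtT-20, by 4.65-fold, 5.75-fold and 2.05-fold. Scn8a read 6.98 and 6.71 in AtT-20 and 4.44 and 4.82 in 3134. Scn11a read 6.88 and 6.10 against 3.88 and 4.05, and its mean was at level in neither line at 0 h. Scn3a was at level in both lines, with 7.35 and 8.55 against 6.62 and 7.21, and its difference of -1.03 lost its call when the first 3134 array at 0 h (adjusted p = 0.182) or the second AtT-20 array (adjusted p = 0.289) was left out of the limma fit. The 3 beta subunits of the sodium channel were not tested. Scn3b read 6.39 and 5.92 in AtT-20 and 3.65 and 4.09 in 3134, while Scn4b had a mean of 4.83 in 3134. Hcn2, a pacemaker channel that opens on hyperpolarization, read 8.38 and 8.39 in AtT-20 and 4.73 and 5.65 in 3134, a difference of -3.20.

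Voltage-gated potassium channel pores, which repolarize the membrane, were the largest subfamily with 27 genes, of which 8 were tested. Kcnc1, Kcnc4, Kcnh1, Kcnh2, Kcnh3 and Kcnq1 were higher in AtT-20. Kcnh2 encodes the ERG channel, and Kcnh1 the related EAG channel. Kcnh2 read 8.18 and 8.52 against 5.51 and 5.72, and Kcnh1 read 8.02 and 8.24 against 4.57 and 5.26. Kcnq1 showed the widest spread within a line of these genes, at 9.48 and 8.33 in AtT-20 against 4.76 and 5.33. It differed by -4.72 in the first run of arrays and by -3.00 in the second. Runs were inferred from the serial numbers in the sample titles. Kcna3, the Kv1.3 pore, went the other way with 6.54 and 6.67 in 3134 against 5.95 and 5.35, a difference of 0.95 that failed the test on the deposited scale (adjusted p = 0.365) and without the second AtT-20 array at 0 h (adjusted p = 0.0831, limma). Kcnf1, a silent subunit that forms no channel alone and modifies Kv2 channels, did not pass at 0 h, at 7.02 and 7.33 in 3134 and 6.91 and 6.25 in AtT-20.

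Calcium-activated potassium channels open when calcium enters the cell. Kcnma1, the BK pore, was higher in AtT-20 by 19.8-fold: its arrays read 8.29 and 8.27 there and 3.94 and 4.00 in 3134, a difference of -4.31 ± 0.166 (SE; limma adjusted p = 1.11e-09). Of its 35 probesets 33 were lower in both 3134 arrays and 1 was higher. Kcnn3, the small-conductance channel SK3, read 9.82 and 10.15 against 4.93 and 4.67, a difference of -5.19 ± 0.185 (SE), and all 10 of its probesets were lower in both 3134 arrays. Kcnn1, the SK1 pore, differed by -1.59. Kcnn4, the intermediate-conductance channel found in many cells that do not fire, stood on the other side. It read 9.20 and 9.14 in 3134 against 5.21 and 5.85 in AtT-20, a difference of 3.63 ± 0.262 (SE; limma adjusted p = 1.78e-07), with 11 of 12 probesets higher in both 3134 arrays. Across all times Kcnn4 ran from 8.25 to 9.20 in 3134 and from 5.21 to 6.01 in AtT-20, without overlap. The BK auxiliary subunit Kcnmb4 read 5.46 and 5.09 in 3134 and 5.06 and 5.18 in AtT-20 and was not tested.

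Inward rectifiers hold the resting potential. Kcnj3, a subunit of the channel that G protein-coupled receptors open, read 10.16 and 10.36 in AtT-20 and 5.21 and 5.00 in 3134, which is 35.6-fold higher in AtT-20, and its 4 probesets shared this direction. Its common partner Kcnj5 lay near 5 in both lines, at 4.75 and 4.84 in AtT-20 and 5.53 and 4.84 in 3134. Kcnj6, another partner, read 6.04 and 5.35 in AtT-20 and 3.93 and 4.00 in 3134, below the testing level. Kcnj9 differed by -0.89, with a limma adjusted p of 0.0307 that was 0.162 without the first 3134 array at 0 h. Kcnj9 was at level in neither line at 0 h, with means of 6.43 in AtT-20 and 5.54 in 3134. It was tested because the single AtT-20 array at 8 h read 6.64. Kcnj11, the pore of the ATP-sensitive channel, read 7.30 and 7.09 against 4.71 and 3.91. Of 14 inward rectifiers 11 were not tested.

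The 2-pore-domain channels carry leak current. Kcnk1, the channel known as TWIK-1, gave the greatest difference of the 35 tested channel genes, at 11.36 and 11.09 in AtT-20 against 5.82 and 5.15 in 3134. The difference was -5.74 ± 0.269 (SE; limma adjusted p = 4.36e-09), or 53.6-fold, and over all times the arrays ran from 11.01 to 11.68 in AtT-20 and from 5.12 to 6.04 in 3134. Kcnk10 differed by -2.33 and Kcnk3 by -1.17, while Kcnk12 read 6.63 and 6.58 in 3134 and 6.40 and 7.09 in AtT-20 and did not pass. The 5 probesets of Kcnk3 did not differ alike, at -3.45, -0.9, -0.82, -0.14 and 0.47. Its median fell on different probesets in the 2 lines, so the size of -1.17 is uncertain. Kcnk2, the channel known as TREK-1, was not tested, at 5.77 and 6.47 in 3134 and 6.08 and 6.33 in AtT-20. Of 16 auxiliary potassium channel genes 3 were tested. Kcnip3, a calcium-binding protein that binds Kv4 channels and also acts as a transcriptional repressor, read 9.85 and 9.91 in AtT-20 and 5.24 and 4.92 in 3134. Kcne2 was higher in AtT-20 by 2.28-fold, with means of 6.29 against 5.10, at level in neither line at 0 h. Kcnab2, a beta subunit with an aldo-keto reductase fold, was higher in 3134 by 2.90-fold, at 8.92 and 8.95 against 7.22 and 7.59.

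Promoters are printed for 4 of the genes that separated the lines, 3 higher in AtT-20 and 1 higher in 3134. They were chosen with their base composition in view, to show its range from CG-poor to CG-rich. Each sequence holds the 250 bases before the start site in RefSeq (GRCm38.p6), written 5′ to 3′ along the gene, with every CG dinucleotide in capitals.
Kcnk1, chr8:125994852-125995101, plus strand: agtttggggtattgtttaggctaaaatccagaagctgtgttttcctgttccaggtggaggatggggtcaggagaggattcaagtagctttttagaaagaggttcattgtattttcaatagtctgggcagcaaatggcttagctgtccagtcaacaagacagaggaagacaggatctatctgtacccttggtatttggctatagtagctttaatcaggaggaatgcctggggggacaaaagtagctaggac
Kcnj3, chr2:55435720-55435969, plus strand: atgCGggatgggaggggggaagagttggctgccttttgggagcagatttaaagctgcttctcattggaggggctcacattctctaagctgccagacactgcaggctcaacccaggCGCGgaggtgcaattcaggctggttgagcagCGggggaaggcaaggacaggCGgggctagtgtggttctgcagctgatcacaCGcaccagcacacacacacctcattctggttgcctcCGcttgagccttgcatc
Kcnma1, chr14:24004206-24004455, minus strand: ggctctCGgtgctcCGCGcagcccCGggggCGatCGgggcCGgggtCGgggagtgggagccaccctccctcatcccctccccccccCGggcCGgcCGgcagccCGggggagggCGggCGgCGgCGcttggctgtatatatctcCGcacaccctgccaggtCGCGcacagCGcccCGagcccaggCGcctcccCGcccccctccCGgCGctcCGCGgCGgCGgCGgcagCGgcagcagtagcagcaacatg
Kcnn4, chr7:24370013-24370262, plus strand: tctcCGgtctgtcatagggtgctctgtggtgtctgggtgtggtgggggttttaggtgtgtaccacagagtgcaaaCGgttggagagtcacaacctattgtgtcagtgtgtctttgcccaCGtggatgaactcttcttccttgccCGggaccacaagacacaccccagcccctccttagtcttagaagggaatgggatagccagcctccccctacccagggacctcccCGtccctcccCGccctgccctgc

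The window of Kcnk1 held no CG dinucleotide and 44.4% G and C, and that of Kcnma1 held 31 CG dinucleotides and 79.2%. Kcnj3 had 7 and Kcnn4 had 6, close to the median of 6 over all 32851 promoters of the table. Of the 5 greatest differences toward AtT-20, the pair not printed were Kcnn3, with 10 CG dinucleotides, and Kcnip3, with 23, 2 and 4 at its 3 listed starts. A promoter was listed for 81 of the 103 genes, 112 in all with alternative starts, and their median was 8. The printed promoters of genes higher in AtT-20 span CG-poor to CG-rich by choice. Whether base composition goes with the line in which a gene is higher was not tested. The sequence TTCAGCACC on either strand, the left part of the element bound by the repressor Rest, was in none of the 112 windows and in 0.301% of all promoters.

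Other genes of excitability and secretion, from a list of 75 partners of these channels, were read for context. Of 64 with a value 45 were tested, and 21 were higher in AtT-20 and 14 higher in 3134, where 30.3% and 24.3% of all tested genes were. The 4 with the smallest p were Atp1b1, Rest, Syt1 and Syt7. Atp1b1, the beta subunit of the sodium pump, had a mean of 11.84 in AtT-20 against 4.46 in 3134. Syt1 and Syt7, calcium sensors of vesicle fusion, differed by -5.55 and -4.32. Rest, known as a repressor of neuronal genes in other cells, went the other way, at 9.52 ± 0.149 (SD, n = 2) in 3134 and 4.90 ± 0.0370 (SD, n = 2) in AtT-20. Its part in the channel differences was not tested.

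In the limma fit without the run as a block, 1 of the 35 tested channel genes, Kcnf1, changed in 3134 during dexamethasone. Hormone and hours in culture cannot be told apart there. Kcnf1 rose in 3134, and in AtT-20 no change passed in that fit. Further genes that passed with the block are given below. In 3134 its arrays read 7.02 and 7.33 at 0 h. They read 8.22 and 8.72 after 2 h, 8.53 and 8.82 after 4 h and 8.74 and 8.80 after 8 h. Every treated array lay above both arrays at 0 h. The change was 1.30 ± 0.296 (SE) at 2 h, 1.50 at 4 h and 1.60 at 8 h on the log2 scale, and the mean over the 3 times was 1.47 ± 0.241 (SE), or 2.76-fold. The limma adjusted p was 0.0692 at 2 h, 0.0215 at 4 h, 0.0151 at 8 h and 0.00546 for the mean. Kcnf1 was the single channel gene called at 4 h, at 8 h and in the mean, where 1.91%, 2.19% and 2.42% of all genes were called, and none was called at 2 h (1.23% of all genes). With the array run as a block, its adjusted p at 2 h was 0.0141, and 3% of all genes were then called. Leaving out the first 3134 array at 0 h gave 1.31 for the mean, with a limma adjusted p of 0.137. At 4 h and at 8 h the call was lost in each of the 4 fits that left out 1 array, while the change stayed between 1.34 and 1.66 at 4 h and between 1.44 and 1.76 at 8 h.

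**Figure D3:**
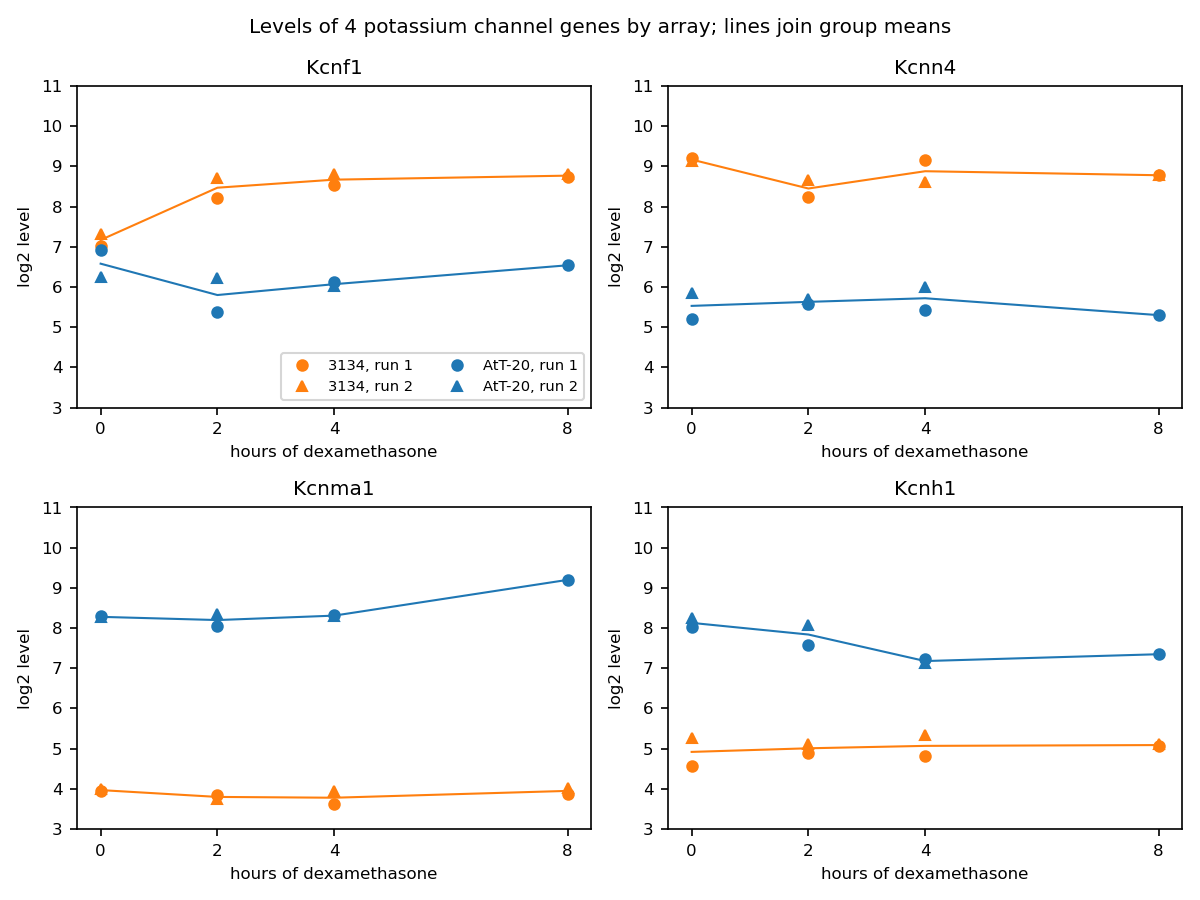
Log2 level by hours of dexamethasone for Kcnf1, Kcnn4, Kcnma1 and Kcnh1, with 1 point per array (circles for the first run, triangles for the second; orange for 3134, blue for AtT-20) and lines through group means. Kcnf1 rises from a mean of 7.17 to 8.77 in 3134, and Kcnma1 in AtT-20 lies at 9.20 in the single array at 8 h.

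The 6 probesets of Kcnf1 did not rise alike. In 3134 their mean changes were 1.65, 1.59, 1.45, 1.04, 0.36 and 0.17, the smallest being that of probeset 4783412, which read 8.71 at 0 h. In the test for unequal change among the 4 probesets at level, Kcnf1 had a limma diffSplice adjusted p of 0.340, and 0.0144 with the run as a block, where 1.62% of all genes passed. With a spread for each probeset the adjusted p was 1.00, and 0.771 with the block. In AtT-20 Kcnf1 read 6.91 and 6.25 at 0 h, 5.37 and 6.22 at 2 h, 6.13 and 6.02 at 4 h and 6.54 at 8 h. The treated and control arrays overlapped at 8 h but not at 2 h or 4 h, and every group mean in AtT-20 lay under 6.59. The change over 2 and 4 h was -0.65 ± 0.256 (SE; limma adjusted p = 1.00), and it was -1.17 in the first run and -0.13 in the second. The difference between the lines in this response, 3134 minus AtT-20 over 2 and 4 h, was 2.05 ± 0.362 (SE; limma adjusted p = 0.0260), the single channel gene to pass beside 0.645% of all genes. It was 2.52 within the first run and 1.57 within the second. The limma adjusted p was 0.0564 without the filter, and the call was lost in 7 of the 12 fits that left out 1 array.

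The promoter of Kcnf1 is printed for the gene that responded, in the same form as above.
Kcnf1, chr12:17176889-17177138, minus strand: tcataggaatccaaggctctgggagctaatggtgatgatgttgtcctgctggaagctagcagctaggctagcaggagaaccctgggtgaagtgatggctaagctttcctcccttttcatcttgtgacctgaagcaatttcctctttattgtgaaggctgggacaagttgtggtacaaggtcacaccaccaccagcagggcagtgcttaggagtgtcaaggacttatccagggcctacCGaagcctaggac

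It held 1 CG dinucleotide and 51.2% G and C. The letters AGAACA, one arm of the element that the glucocorticoid receptor binds, were not in this window on either strand. They were in 16.1% of all promoters and in 15 of the 112 windows of the channel genes, which is 13.4%. These letters lie within 250 bases of the start, and elements farther away were not looked at. A longer palindromic form of the element was also searched, and its result is not reported here.

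Fkbp5 and Per1, known targets of the hormone, rose in both lines during treatment, which puts the channel genes in scale. Fkbp5 rose by 2.84 over the 3 times in 3134 and by 0.91 over 2 and 4 h in AtT-20, and Per1 rose by 2.49 and 1.25. Tsc22d3 rose by 2.73 in 3134, and in AtT-20 its change was 0.66 (limma adjusted p = 1.00). The receptor gene Nr3c1 was 1.50 higher in 3134 at 0 h and fell there by 0.69. Pomc changed by 0.06 in AtT-20 over 2 and 4 h, which did not pass. Of the 45 tested channel partners, 3 rose in 3134 (Sgk1 by 2.27, Nedd4l by 0.59 and Clcn2 by 0.62) and 1 in AtT-20 (Sgk1 by 1.87), where 1.79% and 0.171% of all tested genes rose. Sgk1 is a kinase that regulates many ion channels, Nedd4l a ubiquitin ligase that removes them from the membrane, and Clcn2 a chloride channel. None of these 4 calls was a fall.

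None of the other 34 channel genes passed in 3134 by the limma fit without the run as a block. With the block, Cacnb2 passed at 4 h and Kcnj11 at 8 h, as given below. Over the mean of the 3 times, the 95% interval lay within 1 log2 unit of 0 for 32 of 35 genes. The median change of the 35 was 0.03, against -0.02 over all tested genes. In 3134 only 10 of the channel genes were at level at 0 h and 8 at each later time, and most of the 35 were tested through AtT-20. For genes under 6.59 in 3134 a low signal limits the change that can be seen, so their intervals do not show steady expression. Kcnn4, the channel higher in 3134 than in AtT-20, read 9.20 and 9.14 at 0 h, 8.25 and 8.65 after 2 h and 9.15 and 8.61 after 4 h. Both arrays at 8 h read 8.78. Its change of -0.72 at 2 h had an unadjusted p of 0.0186 and a limma adjusted p of 0.579. Cacnb2 read 6.63 and 6.71 at 0 h and 6.03 and 6.20 at 4 h. Its change of -0.56 at 4 h had a limma adjusted p of 0.224, and 0.0419 with the run as a block, where 5.19% of all genes passed; its arrays at 8 h read 6.61 and 6.41. Kcnn1, the SK1 pore, read 5.79 and 5.85 at 0 h and 6.46 and 6.50 at 8 h, with each group mean under 6.59. Its change of 0.66 at 8 h was alike in both runs (0.67 and 0.66), with a limma adjusted p of 0.300, and 0.0529 with the block. Kcnj11 read 4.71 and 3.91 at 0 h and 4.99 and 5.07 at 8 h, with each group mean in 3134 under 6.59. It changed by 0.72 at 8 h, by 0.28 in the first run and by 1.16 in the second. Its limma adjusted p was 0.352, and 0.0470 with the block, where 7.90% of all genes passed.

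**Figure D4:**
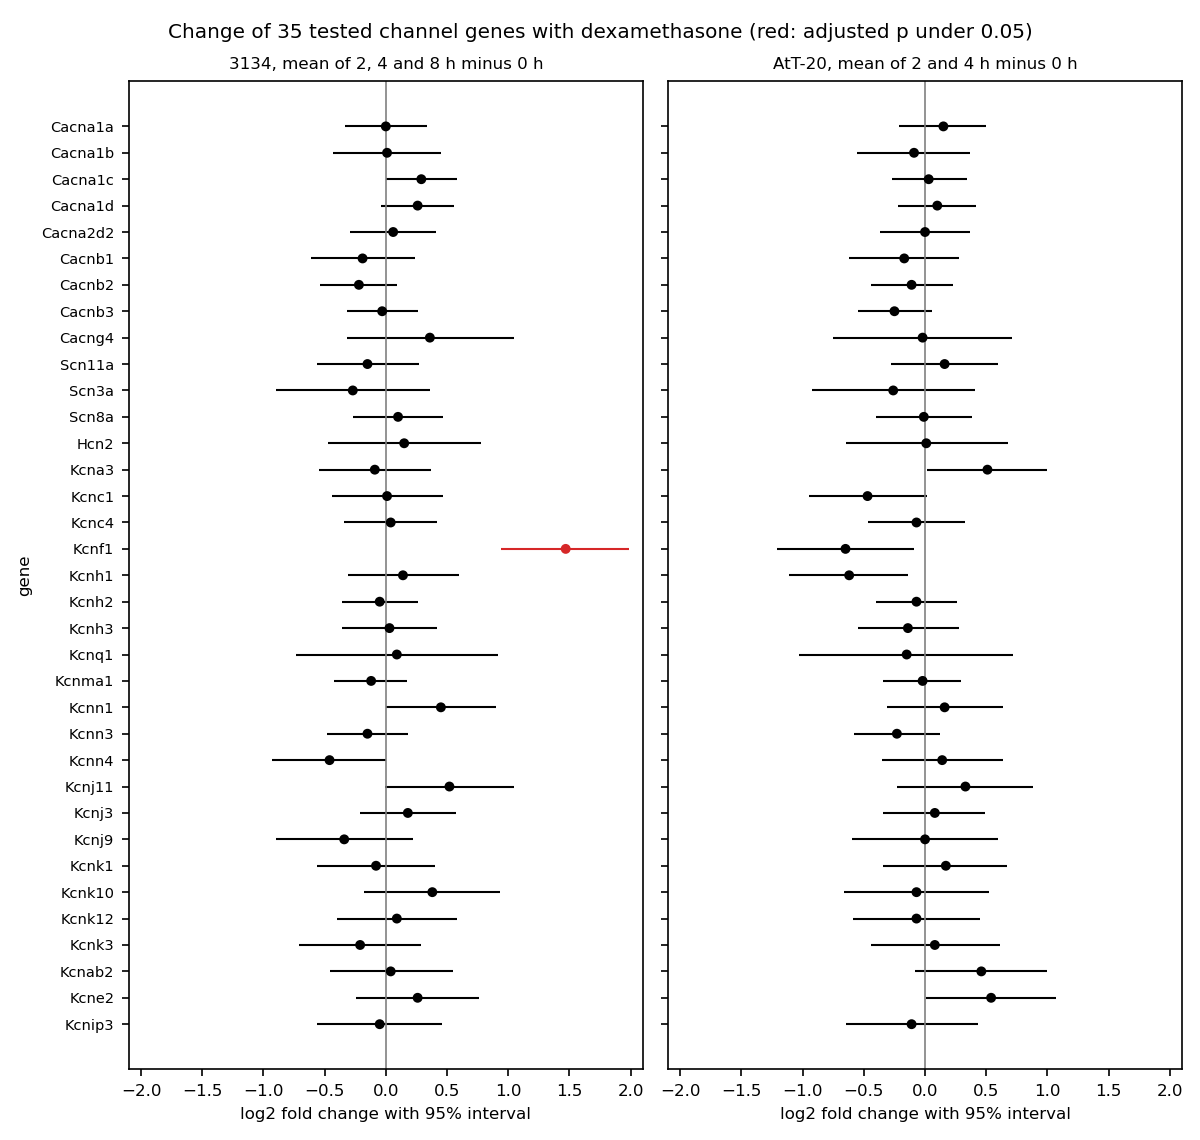
Log2 fold change against 0 h (horizontal axis) with its 95% interval for the 35 tested channel genes, in 3134 over 2, 4 and 8 h (left) and in AtT-20 over 2 and 4 h (right). Kcnf1 in 3134, at 1.47, is the single gene in red (adjusted p under 0.05), and 32 intervals on the left and 29 on the right lie within -1 and 1. At 0 h, 10 of the genes were at level in 3134 and 28 in AtT-20.

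In AtT-20 no channel gene passed at 2, 4 or 8 h or over 2 and 4 h by limma, where 0.0907%, 0.171%, 0.121% and 0.181% of all genes were called. At an unadjusted p under 0.05 there were 2, 3, 2 and 4 of 35, beside 2.39%, 3.40%, 3.05% and 3.42% of all tested genes. For 29 of 35 the 95% interval of the mean change over 2 and 4 h lay within 1 log2 unit of 0. All these counts are from the fit without the run as a block. With the block, 2 genes passed at 4 h, Kcnh1 and Kcna3, beside 0.857% of all genes. Kcnma1, the BK pore, read 8.29 and 8.27 at 0 h, 8.04 and 8.36 at 2 h, 8.32 and 8.30 at 4 h and 9.20 in the array at 8 h. That array lay above the other 6, by 0.92 over 0 h, and 32 of 35 probesets were above both arrays at 0 h. The limma adjusted p was 0.251, and 0.0491 with the run as a block, where 0.444% of all genes passed. A single array stands behind this value, so its own spread is unknown and is taken from the other groups.

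Kcnh1, the EAG channel, read 8.02 and 8.24 at 0 h in AtT-20, 7.59 and 8.08 at 2 h, 7.23 and 7.13 at 4 h and 7.35 at 8 h. The arrays at 4 and 8 h lay below both arrays at 0 h, and at 4 h so did 9 of its 12 probesets. Its change at 4 h was -0.95 ± 0.255 (SE; limma adjusted p = 0.507), and 0.0295 was the adjusted p with the run as a block, where 0.857% of all genes passed. In 3134 Kcnh1 changed by 0.14 over the 3 times, and the difference between the lines did not pass (0.75, limma adjusted p = 0.769). Kcna3, the Kv1.3 pore, read 5.95 and 5.35 at 0 h and 6.72 and 6.26 at 4 h in AtT-20, a change of 0.84. Its limma adjusted p was 0.692, and 0.0260 with the block. Its group means in AtT-20 all lay under 6.59, and it had 3 probesets. The values of Kcnma1, Kcnh1 and Kcna3 share the same 2 control arrays.

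Use of exons was compared through single probesets, each of which samples 1 exon or a part of it. In the comparison of lines at 0 h, 6 channel genes had enough probesets at level in both lines, and 2 of them, Kcnab2 and Kcnk3, passed by limma diffSplice, beside 18.5% of all genes. For Kcnab2 (adjusted p = 9.56e-10) 17 of 18 probesets were higher in 3134, by 0.38 to 2.69. Probeset 5182322 ran against them at 3.35 in 3134 and 6.50 in AtT-20, and its AtT-20 arrays were far apart. Both means lie under 6.59, and it entered the test through a group mean at a later time. For Kcnk3 (adjusted p = 0.000338) probeset 4437295 read 6.64 in 3134 and 10.09 in AtT-20, while 4609300 read 7.08 and 6.61. Both calls rest on a common spread for the probesets of a gene, and diffSplice made false calls in simulated data where the spreads of probesets differed. With a spread for each probeset the adjusted p was 0.173 for Kcnab2 and 0.122 for Kcnk3, beside 7.97% of all genes called, and with the run as a block as well it was 0.0973 and 0.00372 (21.9% of all genes). Cacnb3, the next in order, had a diffSplice adjusted p of 0.993.

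**Figure D5:**
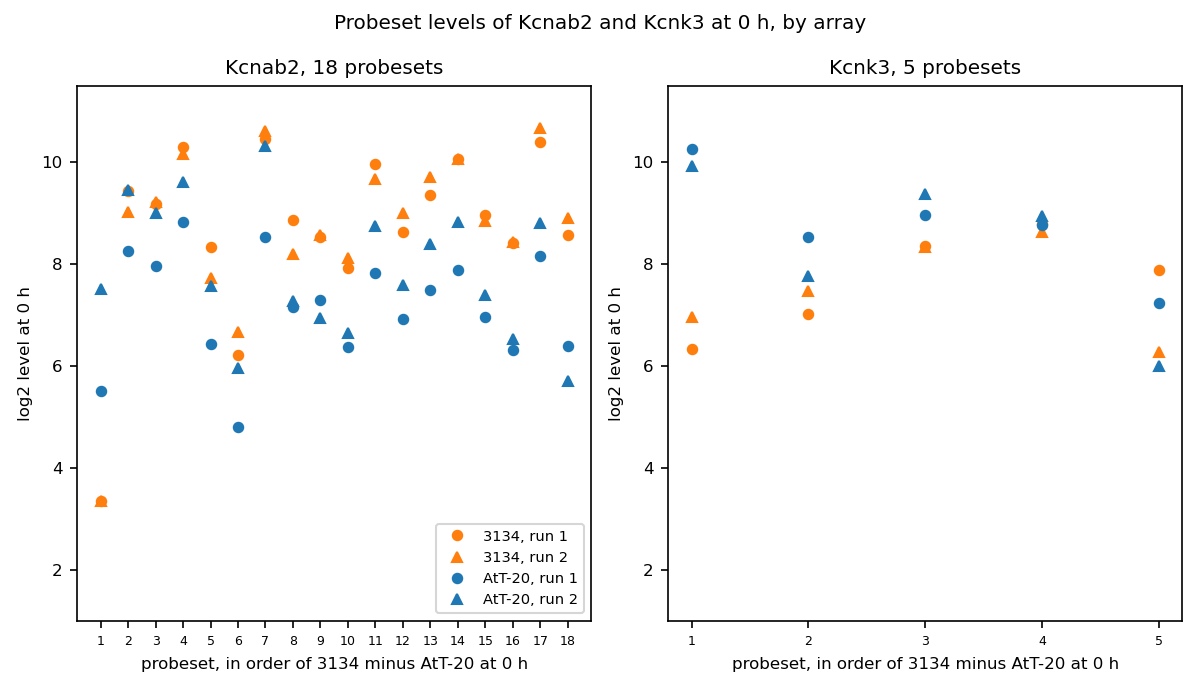
Log2 level at 0 h of each probeset of Kcnab2 (18 probesets) and Kcnk3 (5 probesets), 1 point per array, with probesets ordered by their difference between the lines (orange for 3134, blue for AtT-20). The leftmost probeset of Kcnab2 is higher in AtT-20 while the other 17 have a higher mean in 3134, and the leftmost of Kcnk3 lies at 6.64 against 10.09.

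During dexamethasone no channel gene passed the exon test in either line by diffSplice, with 9 tested in 3134 (0.213% of all genes called) and 28 in AtT-20 (0.525%). After Kcnf1, each of the other 8 genes in 3134 had an adjusted p of 0.999. In AtT-20 the first were Scn8a at 0.574, Cacna1a at 0.998 and Kcnk10 at 0.998. With the run as a block, Cacna1a passed at 0.0427 through probeset 4496607, with 4.38% of all genes called, and its adjusted p was 0.989 with a spread for each probeset and the block. Which exons these probesets cover was not looked at here.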

How the data were processed

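The values are log2 probeset signals of 15 single-colour Affymetrix mouse exon arrays, for which the submitters' processing notes name RMA in Affymetrix Expression Console without a version. The deposited log2 columns differed in level, by run: medians lay between 7.51 and 8.14 in the first serial run of a line and between 6.76 and 7.22 in the second. All arrays were therefore quantile normalized here. Of 228090 probesets 207232 had 1 gene symbol; 15025 genes had at least 3. Symbols were updated through RefSeq (GRCm38.p6), which also gave the promoters.

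Group means of 8 groups were fitted with limma 3.58.1 (lmFit, eBayes, 2-sided) in R 4.3.3 on 9919 genes, with 7 residual degrees of freedom and p-values adjusted by Benjamini and Hochberg's method. Exon use was tested with diffSplice (Simes test) on probesets with a mean of at least 6.59 in any of the 8 groups, in genes at level in the groups compared. The scripts were checked on simulated arrays, where diffSplice made false calls when the spreads of a gene's probesets differed, so its calls are given beside a test with a spread for each probeset. Replicates 1 and 2 are taken as the first and second serial run of a line. The runs were inferred from the serial numbers in the sample titles, which do not name a run. Deviations of same-run arrays from their group means correlated at 0.491 to 0.591 over 9 pairs in a line, and at 0.276 to 0.390 over 12 pairs across lines, so runs were taken as pairing arrays. The fit that adds run as a block, which leaves 5 residual degrees of freedom, is given where it changes a call. Calls in the text are from the fit without the block, which ignores this pairing, unless the block is named. Precision is set by the number of arrays, and between 2 groups of 2 arrays a tested channel gene had a median standard error of 0.254. The genes, lists and named-gene rule were chosen with earlier results of these data known. The rule named the 12 greatest called differences each way between lines, all genes called with dexamethasone, the 3 smallest exon p-values per comparison, the highest gene of each subfamily per line and a fixed few. Genes outside it, such as those called only with the block, were chosen after their values were seen. Alternatives were the block, the deposited scale, median-centred arrays, other filters, the mean over probesets and each array left out. The test with a spread for each probeset was added after seeing the data.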

Additional observations from a re-analysis of the deposited data

Results flagged for a closer look

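The response of Kcnf1 to dexamethasone differed between the lines, by 2.05 ± 0.362 (SE) on the log2 scale over 2 and 4 h (limma adjusted p = 0.0260). It drew attention because the difference of responses itself passed the test. In 3134 all 6 treated arrays lay above both arrays at 0 h, and in AtT-20 the 4 arrays at 2 and 4 h lay below both. The margin in AtT-20 was narrow, 6.22 against 6.25, and the array at 8 h read 6.54, between the controls. Every group mean of Kcnf1 in AtT-20 lay under 6.59. The change in AtT-20 did not pass alone. No group had 4 arrays, so single arrays could not be checked for standing apart within a group.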

How the results depend on the processing

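No called value of a named channel gene changed sign under the alternatives that were run. Between the lines at 0 h, 32 channel genes passed, and the number was 32 with the array run as a replicate block, 31 with median-centred arrays, 24 of 39 tested on the deposited scale and 15 of 16 tested with a 60th percentile filter, which tests fewer genes. It ran from 28 to 31 when 1 array was left out. On the deposited scale the median of all genes shifted to 0.22 between the lines (-0.10 after quantile normalization) and by -0.37 at 8 h in 3134, and its calls over all genes split into 1039 higher and 940 lower in 3134, against 2407 and 3001. With the block the split was 3335 and 2123 on the deposited scale, against 2940 and 3689 after quantile normalization. With the replicate block, 1 channel gene passed in 3134 at 2 h, 2 at 4 h and 2 at 8 h, and in AtT-20 2 at 4 h and 1 at 8 h. On the deposited scale none passed (0) in 3134 at 4 h, at 8 h, over the mean or in the difference of responses. With the block on that scale, 1 passed in 3134 at 2 h, 2 at 8 h, 3 over the mean, 1 in AtT-20 at 4 h and 2 in the difference. In 3134 at 2 h, 1 passed with centred arrays and 1 with the mean over probesets, and 0 passed in the difference without a filter. The cause of these changes was not tested. Leaving out 1 array gave 0 in 3134 at 4 h and at 8 h, 0 to 1 over the mean and 0 to 1 in the difference. In the exon test of the lines, the 2 calls became 1 with a 60th percentile filter, 0 with a spread for each probeset and 1 when the block was added to that. With the block, diffSplice called 1 channel gene in 3134 and 1 in AtT-20, and leaving out 1 array gave 0 to 2 in AtT-20.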
